A study of Mus musculus with 15 samples.

Results

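Chromatin accessibility was examined at 5 neighbouring protein-coding genes of mouse chromosome 6, namely Snd1, Lep, Rbm28, Irf5 and Tnpo3, in CD4+ T cells with and without Irf5. Regions were formed by merging the peaks of 15 ATAC-seq libraries, those seen in at least 2 libraries were kept, and each was assigned to its nearest protein-coding gene within 100 kb. The members were thus chosen by peak presence, which gave 50 of 83743 regions: 35 at Snd1, 2 at Lep, 3 at Rbm28, 5 at Irf5 and 5 at Tnpo3. Of these, 36 overlapped the gene itself and 14 lay outside it. At the limit, 6 members were seen in 2 libraries, with a highest pileup of 0.365 to 0.842 FPM (fragments covering the summit per 1000000 fragments kept in the library), and 11 regions of these genes seen in 1 library, with 0.363 to 1.49, were left out. The choice of regions used the presence of peaks in any library and neither genotype nor time, but the genes were proposed with earlier results of these data known.

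ATAC-seq marks open chromatin by the insertions of a transposase. The libraries came from CD4+ mouse T cells of genotype IRF5+/+ (wild type) or IRF5-/- (knockout), either untreated (0 h) or activated in vitro for 72 h. There were 4 wild-type and 3 knockout libraries at 0 h (knockout numbers 1, 3 and 4), and 4 of each genotype at 72 h. The strain, the age of the mice, the make-up of the deleted allele, the cells that lack Irf5 and the activating agents are not given in the sources used here. The labels call the libraries of a group biological replicates without saying whether each came from its own animal, and p-values then reflect how far these libraries spread. Activation cannot be told apart from time in culture, and in bulk samples a lower signal in each cell cannot be told apart from fewer cells with an open region.

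Between 20531236 and 29000534 fragments per library remained after duplicate removal. Knockout library 3 at 0 h stood apart before any comparison, with 29994 peaks against 39807 to 47790 in the other 0 h libraries and with a median pileup of 1.80 FPM over the regions called in all libraries, against 3.85 to 5.07 in the other 0 h libraries. The height differences of the regions called in all libraries are also given without it. All 8 CD4 T cell markers had a peak in every library. Their summed pileups were 131 to 168 FPM in wild type and 57.8 to 140.2 in knockout at 0 h. At 72 h they were 50.2 to 69.1 and 39.3 to 47.1. Of the B cell list, 4 of 7 genes had a peak in all libraries of each group, with summed pileups of 11.4 to 14.8 FPM in wild type and 5.16 to 11.5 in knockout at 0 h, and 16.1 to 21.5 and 13.2 to 15.2 at 72 h, while Cd79b and Ms4a1 had none in any group. The summed myeloid list was at 8.61 to 18.3 FPM in wild type and 5.36 to 15.9 in knockout at 0 h. At 72 h it was at 7.66 to 10.6 and 6.72 to 7.60. In the CD4 T cell, B cell and myeloid sums at 72 h every knockout library lay below every wild-type library. Of all regions with a peak in all 8 libraries at 72 h, 13.0% were split in this way. These sums were not centred, and the median log2 difference of those regions, knockout against wild type, was −0.22. Itgam, Spi1 and Cebpa had a peak in every library, and Cd14 in all but knockout at 0 h, where 2 libraries had it. Csf1r had a peak in 1 wild-type library at 0 h and 1 knockout library at 72 h, and Lyz2 and Adgre1 had none. The CD8 T and NK list was at 3.92 to 4.95 and 1.42 to 4.84 at 0 h. Its sums at 72 h were 0.57 to 0.80 and 0.65 to 1.25. Cd8b1 had a peak in every library, and Cd8a in 4 wild-type and 2 knockout libraries at 0 h. By 72 h Cd8a had a peak in 0 wild-type libraries and 1 knockout library, and Ncr1 and Klrb1c had none in any group. The part of other cell types in the results was not tested.

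The protein of Irf5 is a transcription factor of the interferon regulatory family, known for carrying signals from Toll-like receptors to inflammatory cytokine genes in myeloid and B cells. Its neighbour Tnpo3 encodes an importin that brings splicing factors into the nucleus, and the human IRF5-TNPO3 region is a known risk locus of systemic lupus erythematosus. Snd1 encodes a nuclease with Tudor and staphylococcal nuclease domains that acts in RNA-induced silencing and as a transcriptional coactivator. Lep encodes leptin, the adipocyte hormone, whose receptor is also used by T cells, and Rbm28 encodes a nucleolar RNA-binding protein of large ribosomal subunit biogenesis. A promoter is usually the most open part of an expressed gene, and distal open regions often mark enhancers.

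The gene bounds are those of RefSeq on GRCm38.p6, the assembly behind mm10, and start sites are those of the RefSeq promoter table, which for Irf5 lies inside the gene bounds. Snd1 (gene 56463) spans chr6:28480337-28935162, Lep (gene 16846) chr6:29060221-29073876, Rbm28 (gene 68272) chr6:29123573-29164724, Irf5 (gene 27056) chr6:29526130-29541869 and Tnpo3 (gene 320938) chr6:29540827-29609858. Snd1, Lep and Irf5 are on the plus strand and Rbm28 and Tnpo3 on the minus strand, so Irf5 and Tnpo3 converge and their 3′ ends overlap. The 250 bases before each start site are shown because 4 of the 5 promoters had a peak in all 15 libraries and that of Lep had none. The sequences are from RefSeq (GRCm38.p6), 5′ to 3′ on the gene's strand, and capitals mark matches on either strand to GGGCGG (GC box), CCAAT, CCGGAAGT (an ETS factor element), TATAA and GAAANNGAAA (an IRF element).
Snd1: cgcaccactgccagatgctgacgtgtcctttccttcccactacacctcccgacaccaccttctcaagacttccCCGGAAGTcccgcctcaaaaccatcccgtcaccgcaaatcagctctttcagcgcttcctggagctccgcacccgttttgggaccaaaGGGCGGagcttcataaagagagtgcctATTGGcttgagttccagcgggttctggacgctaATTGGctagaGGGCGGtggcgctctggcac
Rbm28: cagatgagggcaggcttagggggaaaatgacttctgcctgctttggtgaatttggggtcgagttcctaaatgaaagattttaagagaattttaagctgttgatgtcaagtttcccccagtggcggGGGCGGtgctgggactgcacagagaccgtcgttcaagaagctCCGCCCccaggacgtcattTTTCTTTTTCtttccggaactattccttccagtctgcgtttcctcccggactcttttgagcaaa
Irf5: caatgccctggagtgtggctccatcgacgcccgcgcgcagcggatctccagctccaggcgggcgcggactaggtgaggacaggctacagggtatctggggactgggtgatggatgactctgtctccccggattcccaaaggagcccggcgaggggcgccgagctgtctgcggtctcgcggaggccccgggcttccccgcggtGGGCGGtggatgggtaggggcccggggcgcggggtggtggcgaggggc
Tnpo3: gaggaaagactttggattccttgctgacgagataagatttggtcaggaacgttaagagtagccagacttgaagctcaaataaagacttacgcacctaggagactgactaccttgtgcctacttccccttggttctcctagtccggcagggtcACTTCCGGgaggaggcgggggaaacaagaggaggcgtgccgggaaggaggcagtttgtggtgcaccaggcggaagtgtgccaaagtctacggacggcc
Lep: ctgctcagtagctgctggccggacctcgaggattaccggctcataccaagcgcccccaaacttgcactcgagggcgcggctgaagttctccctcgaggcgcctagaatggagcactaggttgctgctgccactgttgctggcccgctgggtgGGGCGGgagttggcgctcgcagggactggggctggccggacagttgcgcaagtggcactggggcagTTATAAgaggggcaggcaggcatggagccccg

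The intervals printed are chr6:28480098-28480347 for Snd1, chr6:29164725-29164974 for Rbm28, chr6:29526375-29526624 for Irf5, chr6:29609850-29610099 for Tnpo3 and chr6:29059971-29060220 for Lep. The Irf5 promoter was the most GC-rich, at 72.0% with 25 CG dinucleotides, against a median of 52.4% and 6.0 over 32851 RefSeq promoters of this length. Snd1 held 58.4% GC, Rbm28 49.6%, Tnpo3 54.4% and Lep 65.6%. The CCGGAAGT element stood in the Snd1 and Tnpo3 promoters and in 2.88% of all promoters. The GAAANNGAAA element stood, on the opposite strand, in Rbm28 alone of the 5 and in 2.98% of all promoters. The GC box was found in Snd1, Rbm28, Irf5 and Lep and in 32.7% of all promoters, CCAAT in Snd1 and 33.8%, and TATAA in Lep and 22.8%. These letter matches describe the windows and are not shown binding sites.

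The plot of all member regions by library shows the overall pattern: a few strong promoter regions in every library, a set of Snd1 regions seen at 72 h, and a group near the 3′ end of Snd1 seen in wild-type libraries.

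**Figure D1:**
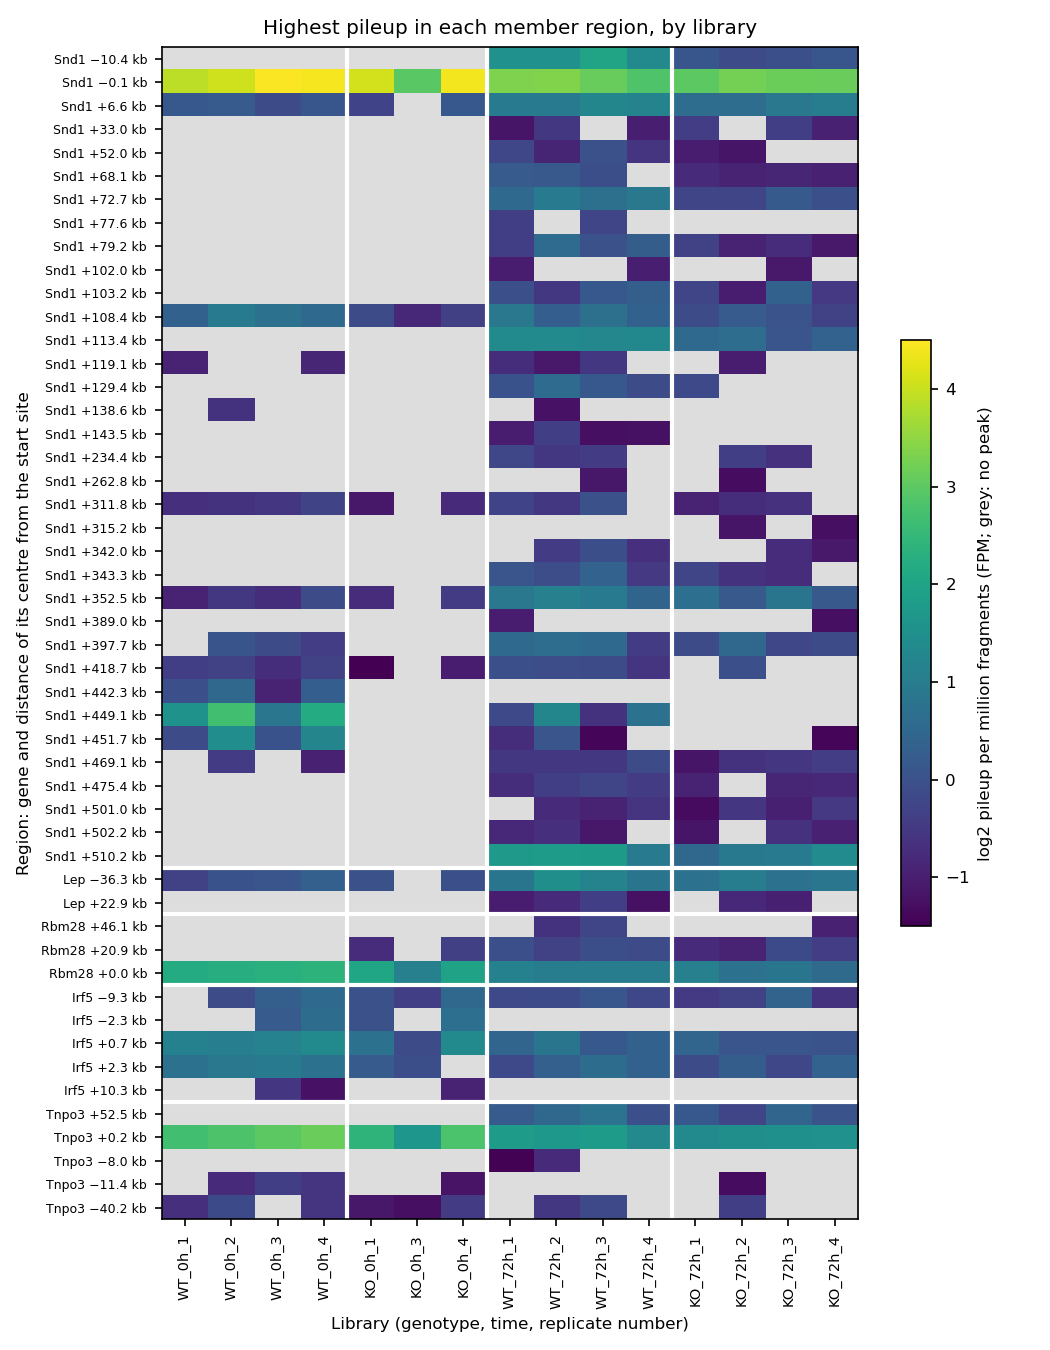
Highest pileup (log2 FPM) in each of the 50 member regions (rows, with the distance of the region's centre from the gene's start site in kb) in each of the 15 libraries (columns), grey where no peak was called. The Snd1, Rbm28, Irf5 and Tnpo3 promoters are coloured in all 15 libraries, and the Snd1 region at +449.1 kb is coloured in all 8 wild-type and grey in all 7 knockout libraries.

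The largest genotype difference in peak presence lay at the 3′ end of Snd1. A region at chr6:28929168-28929750, inside Snd1 and 5412 bases before its end (+449.1 kb from the start site), had a peak in 8 of 8 wild-type and 0 of 7 knockout libraries. Of all 83743 regions, 2 had a peak in every wild-type and no knockout library, which is 0.00239%, and the other lies in Agap3 on chromosome 5. In wild type at 0 h its highest pileup was 2.94, 6.41, 1.82 and 4.55 FPM in libraries 1 to 4. In wild type at 72 h it was 0.892, 2.40, 0.651 and 1.67. No knockout library had a peak there, so its signal lay under the calling threshold at both times, which does not show closed chromatin. The lowest pileup of any called peak in the knockout libraries was 0.318 to 0.390 FPM.

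The authors' lists from merged replicates, called on the same libraries pooled by group, show the same split and are no separate evidence. In the authors' deposited merged list for wild type at 0 h, the +449.1 kb peak had a fold enrichment of 13.3 over local background and a −log10 q of 289, and at 72 h of 11.9 and 103. The merged knockout lists held no peak in this region at either time. For scale, the Snd1 promoter had a fold enrichment of 19.1 in the authors' deposited merged knockout list at 0 h.

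A pair of neighbouring regions also had fewer knockout peaks, at lower levels. The region at chr6:28931866-28932197 (+451.7 kb, 2965 bases before the gene's end) had pileups of 0.937, 2.72, 1.01 and 2.33 FPM in wild-type libraries 1 to 4 at 0 h, and no knockout peak at 0 h. It had, at 72 h, 0.608, 1.05 and 0.383 in wild-type libraries 1 to 3, none in library 4, and 0.374 in knockout library 4 alone. The region at chr6:28920986-28924256 (+442.3 kb) had 0.982, 1.41, 0.526 and 1.23 FPM in the 4 wild-type libraries at 0 h and no peak in any other single library. The authors' deposited list of merged 72 h wild-type replicates held a weaker peak inside it, with a fold enrichment of 2.56.

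**Figure D2:**
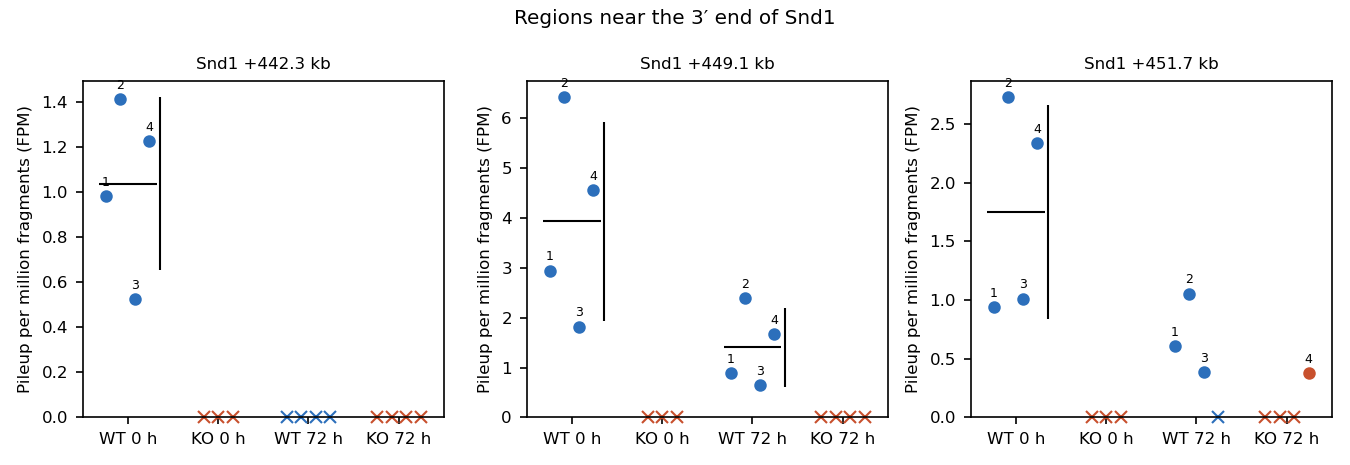
Highest pileup in FPM in 3 regions near the 3′ end of Snd1, by group (blue, wild type; orange, knockout), with the replicate number above each library, crosses where no peak was called, and mean (line) and SD (bar) where every library of a group had a peak. Wild-type libraries 2 and 4 lie highest in all 3 panels at 0 h, and the knockout libraries are at crosses except library 4 at 72 h in the right panel.

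The wild-type libraries were unequal at this end of Snd1. At the +449.1 kb region library 2 was highest, then library 4, then 1, then 3, at 0 h and again at 72 h. The ratio of the 0 h to the 72 h pileup of the same number lay between 2.68 and 3.30 for the 4 numbers. Over all regions called in every library, wild-type libraries of the same number at the 2 times did not deviate together (r of their deviations from the group means −0.061 to 0.037, over regions), so the labels and the rest of the data give no pairing of the numbers. The headers of wild-type library 4 name an alignment with the number 5, at 0 h and at 72 h.

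Tested over all 83743 regions with time as stratum, no region passed for genotype in peak presence (0.0% called, lowest adjusted p = 1.0, two-sided exact stratified test). None of the 50 member regions passed either. The smallest p, reached by 2 regions, cannot pass the adjustment, so this lack of calls tells nothing about the regions. The +449.1 kb region had the smallest p this design allows (exact p = 0.000408), which describes the split above and is no further evidence, since peak presence chose the regions and this one passed that choice through its wild-type libraries alone. At an unadjusted p under 0.05 there were 5 of 50 member regions and 1.39% of all regions, and all 5 were Snd1 regions with fewer knockout peaks. Besides the 3 above, they were chr6:28898658-28899459 (+418.7 kb), with a peak in 8 wild-type and 3 knockout libraries, and chr6:28623691-28624021 (+143.5 kb), with a peak in 4 of 4 wild-type and 0 of 4 knockout libraries at 72 h and none at 0 h. Peaks in every wild-type and no knockout library were found in 0.39% of all regions at 0 h and in 0.462% at 72 h. The regions at +442.3 and +143.5 kb, like that at +449.1 kb, passed the choice of regions through wild-type libraries alone. Their p describes the split and is no further evidence. Since the genes were also proposed with results of these data known, these counts are a description of the locus.

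A fit that gave each library without a peak the lowest pileup among its own peaks, added after the data were seen, called 0.512% of all 83743 regions lower and 0.0119% higher in knockout, and 4 and 0 of the 50 member regions, all 4 at Snd1. At the +449.1 kb region every knockout value in that fit was imputed, so its estimate would restate the missing peaks, and it is not given as a height. Knockout libraries without a peak in other regions were imputed as well. The count of 4 is thus no support apart from peak presence.

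**Figure D3:**
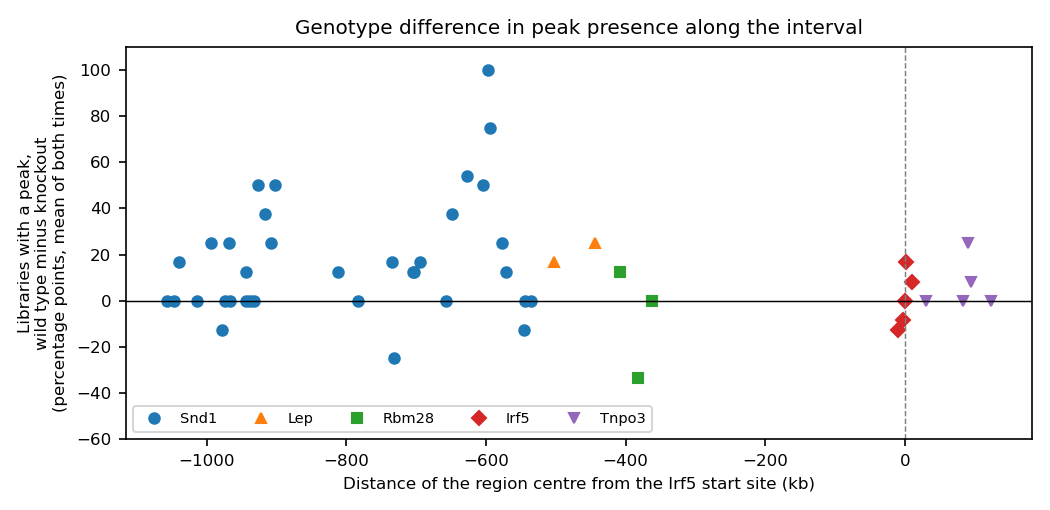
Share of wild-type libraries with a peak minus the share of knockout libraries with a peak, as the mean of both times in percentage points, for each of the 50 member regions against the distance of its centre from the Irf5 start site. Regions near the 3′ end of Snd1, far 5′ of Irf5, reach 100, 75, 54.2 and 50 points. The Snd1 regions at +119.1 and +143.5 kb from its start site, away from that end, also reach 50. Those at Irf5 and Tnpo3 lie between −12.5 and 25.0.

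Few other regions of the interval had this pattern. Of 78 regions between the start of Snd1 and the end of Tnpo3, 2 (2.56%) had a peak in at least 7 wild-type and at most 1 knockout library, both at the 3′ end of Snd1, against 0.0991% of all regions. There were 0 of 88 such regions within 1 Mb outside the interval and 0 of 33 at the other 13 protein-coding genes inside it, whose lowest genotype p was 0.0469 (exact, unadjusted, Flnc). No region of the 83743 had the opposite pattern, a peak in at least 6 knockout and at most 1 wild-type library.

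A second genotype difference lay 5′ of Snd1 and was seen only at 72 h. The region at chr6:28469623-28470255, 10.1 kb before the Snd1 start, had no peak in any 0 h library and a peak in all 8 libraries at 72 h. Its pileup was 2.92, 2.90, 4.02 and 2.53 FPM in wild type (3.09 ± 0.64, SD, n = 4) and 1.07, 0.928, 0.982 and 1.08 in knockout (1.01 ± 0.07, SD, n = 4). The lowest wild-type value was above the highest knockout value by more than the range of the knockout libraries. In a limma fit of the 37364 regions with a peak in all 8 libraries at 72 h, a comparison added after the data were seen, it was lower in knockout by a log2 difference of −1.59 ± 0.17 (SE), a wild-type level 3.01-fold higher (adjusted p = 0.000107), and it ranked first of all regions by p.

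The fit called 4.59% of these regions lower and 0.0321% higher in knockout, and the median of all regions was −0.22. With each library centred on its median, 2 regions were called lower (0.00535%), of which the region 5′ of Snd1 was 1, at −1.34 ± 0.14 (limma adjusted p = 0.00263). On the authors' fold enrichment the difference was −0.74 ± 0.12 and the adjusted p was 0.0696, which ends the call. It stayed under the threshold when each of the 8 libraries was left out in turn (limma adjusted p 0.000176 to 0.00316).

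Of the 20 member regions in this fit, 5 were called lower in knockout and 0 higher, and all 5 were among the 12 of Snd1. The others lay inside the gene, between +72.7 and +113.4 kb. At +113.4 kb (chr6:28593364-28594169) the pileup was 2.59, 2.54, 2.41 and 2.45 FPM in wild type and 1.47, 1.57, 1.07 and 1.31 in knockout. At +72.7 kb (chr6:28552695-28553340) it was 1.46, 1.96, 1.65 and 1.87 against 0.846, 0.848, 1.15 and 0.982. The groups did not overlap in either region.

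Those regions differed by −0.90 ± 0.16 (limma adjusted p = 0.00977) and −0.86 ± 0.17 (limma adjusted p = 0.013). The regions at +79.2 kb (−0.90 ± 0.20, limma adjusted p = 0.0209) and +108.4 kb (−0.61 ± 0.18, limma adjusted p = 0.0496) were the remaining calls. Relative to the library medians none of these 4 stayed under the threshold (limma adjusted p 0.173 to 0.389), nor on fold enrichment (0.286 to 0.78). Each of the 4 also lost the call when some 1 library was left out, with a highest limma adjusted p of 0.0819 at +72.7 kb, 0.111 at +79.2 kb, 0.145 at +108.4 kb and 0.0663 at +113.4 kb. In 4 of the 12 Snd1 regions every knockout library lay below every wild-type library, against 13.0% of all regions with peaks in all 8, and after scaling to equal library medians in 3 of 12 against 3.08%.

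**Figure D4:**
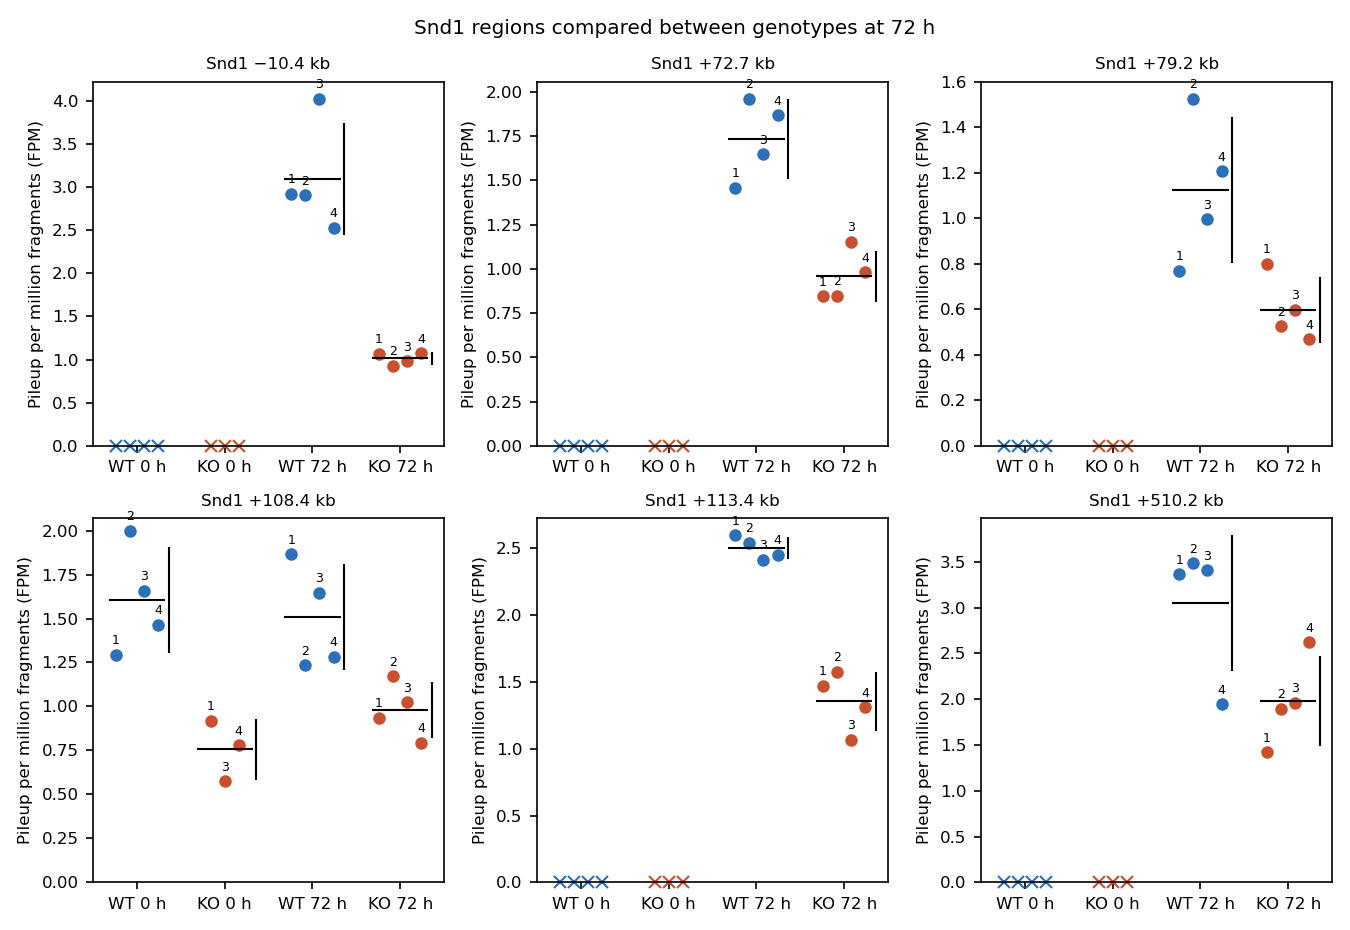
Highest pileup in FPM in 6 Snd1 regions, by group, with symbols as in the plot of the 3′ end of Snd1. At −10.4 kb the wild-type libraries at 72 h sit between 2.53 and 4.02 and the knockout libraries between 0.928 and 1.08, and at +510.2 kb wild-type library 4, at 1.94, lies among the knockout libraries.

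The region at chr6:28990114-28991032 (+510.2 kb, past the 3′ end of Snd1) did not pass. Its pileup was 3.37, 3.48, 3.41 and 1.94 FPM in wild type at 72 h and 1.42, 1.90, 1.96 and 2.62 in knockout (−0.62 ± 0.21, limma adjusted p = 0.0757). Library 4 of wild type lay within the range of the knockout libraries. Its median pileup over the regions called in all libraries was 2.294 FPM, also within the knockout range at 72 h (2.136 to 2.348). The other wild-type libraries at 72 h had medians of 2.675 to 2.903.

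The Snd1 region at chr6:28588317-28589222 (+108.4 kb) had a peak in all 15 libraries. Its pileup was 1.29, 2.0, 1.66 and 1.47 FPM in wild type and 0.918, 0.574 and 0.779 in knockout libraries 1, 3 and 4 at 0 h. The 72 h libraries had 1.86, 1.23, 1.65 and 1.28 in wild type and 0.935, 1.17, 1.02 and 0.795 in knockout. Every knockout library lay below every wild-type library at each time. In the limma fit of the 21176 regions called in all libraries it was lower in knockout by −0.85 ± 0.19 (adjusted p = 0.0177), and it was the only 1 of the 5 member regions in that fit to be called, where 3.85% of all regions were called lower and 0.00472% higher. At 0 h the knockout libraries lay below the wild type in 2 of the 5 member regions, this one and the Rbm28 promoter, against 12.7% of all regions, and after scaling to equal library medians in 0 of 5 against 2.43%.

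That fit carried a general shift: the median of all regions was −0.37 for knockout against wild type. Relative to the library medians the +108.4 kb region differed by −0.46 ± 0.14 (limma adjusted p = 0.243), and 0.0% of regions were called lower and 0.00472% higher. Without knockout library 3 at 0 h the difference was −0.76 (limma adjusted p = 0.00198) and the median of all regions −0.17. The call was lost with any 1 of 7 other libraries left out: wild-type library 2 or 3 at 0 h, wild-type library 1, 2 or 3 at 72 h, and knockout library 1 or 4 at 72 h.

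None of the 4 promoter regions was called between genotypes. The promoter region of Snd1 (chr6:28479776-28480805) had pileups of 14.9, 16.8, 22.0 and 21.5 FPM in wild type at 0 h and 17.2, 7.84 and 21.0 in knockout libraries 1, 3 and 4. The 72 h values were 10.2, 10.3, 8.58 and 7.23 in wild type and 7.92, 9.49, 8.84 and 8.79 in knockout. Genotypes overlapped at both times, with the lowest 0 h value in knockout library 3. The difference between genotypes was −0.22 ± 0.19 (limma adjusted p = 0.291). Without knockout library 3 at 0 h it was −0.003 ± 0.13 (limma adjusted p = 0.987).

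Irf5 itself had open chromatin at its promoter in every knockout library. The promoter region (chr6:29526327-29528321) had pileups of 2.19, 2.1, 2.23 and 2.53 FPM in wild type and 1.69, 0.918 and 2.53 in knockout libraries 1, 3 and 4 at 0 h. At 72 h it had 1.38, 1.78, 1.11 and 1.28 in wild type and 1.38, 1.05, 1.07 and 1.03 in knockout. The genotypes overlapped at both times, and the difference of −0.40 ± 0.19 (limma adjusted p = 0.0969) was close to the median of all regions. Without knockout library 3 at 0 h the difference was −0.20 ± 0.13 (limma adjusted p = 0.306). Its summits lay from 84 bases before to 467 bases after the start site. Not given in the sources used here was the deleted part of Irf5, and this signal tells nothing about which allele a library carries.

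A second region inside Irf5 (chr6:29528398-29529417, +2.3 kb) had a peak in 14 of 15 libraries, at 1.70, 1.86, 1.98 and 1.70 FPM in wild type at 0 h, 1.17 and 0.956 in knockout libraries 1 and 3, and none in knockout library 4. Its 72 h values were 0.892 to 1.53 in wild type and 0.854 to 1.31 in knockout, which overlap. Upstream, the region at −9.3 kb, which overlaps the non-coding gene Gm26627, had a peak in 7 of 8 wild-type and 7 of 7 knockout libraries. The remaining Irf5 regions, at −2.3 kb and +10.3 kb, were seen at 0 h alone, in 2 wild-type and 2 knockout and in 2 wild-type and 1 knockout libraries. None of these Irf5 regions was called for genotype in presence, where no region could be, and their lowest unadjusted exact p was 0.429.

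The Rbm28 promoter (chr6:29164209-29165298) had pileups of 4.55, 4.69, 4.98 and 5.22 FPM in wild type and 4.13, 2.18 and 3.90 in knockout at 0 h, where the knockout libraries lay below the wild type. At 72 h the groups overlapped, at 2.19, 2.03, 2.07 and 2.06 in wild type and 2.18, 1.70, 1.79 and 1.5 in knockout. The genotype difference was −0.40 ± 0.19 (limma adjusted p = 0.0963), or −0.25 without knockout library 3 at 0 h (limma adjusted p = 0.191), and −0.01 ± 0.10 relative to the library medians (limma adjusted p = 0.978).

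The Tnpo3 promoter (chr6:29608965-29610391) had 6.47, 7.14, 7.93 and 8.71 FPM in wild type and 5.26, 3.14 and 6.92 in knockout at 0 h. By 72 h these were 3.53, 3.27, 3.45 and 2.49 against 2.58, 2.79, 2.86 and 2.90. The genotypes overlapped at both times. Its difference was −0.41 ± 0.19 (limma adjusted p = 0.0936), or −0.25 without knockout library 3 at 0 h (limma adjusted p = 0.21), and −0.02 ± 0.07 relative to the library medians (limma adjusted p = 0.949). No interaction of genotype and time was called for any region of that fit (0.0%), the 5 member regions included, whose unadjusted limma p was 0.216 or higher.

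**Figure D5:**
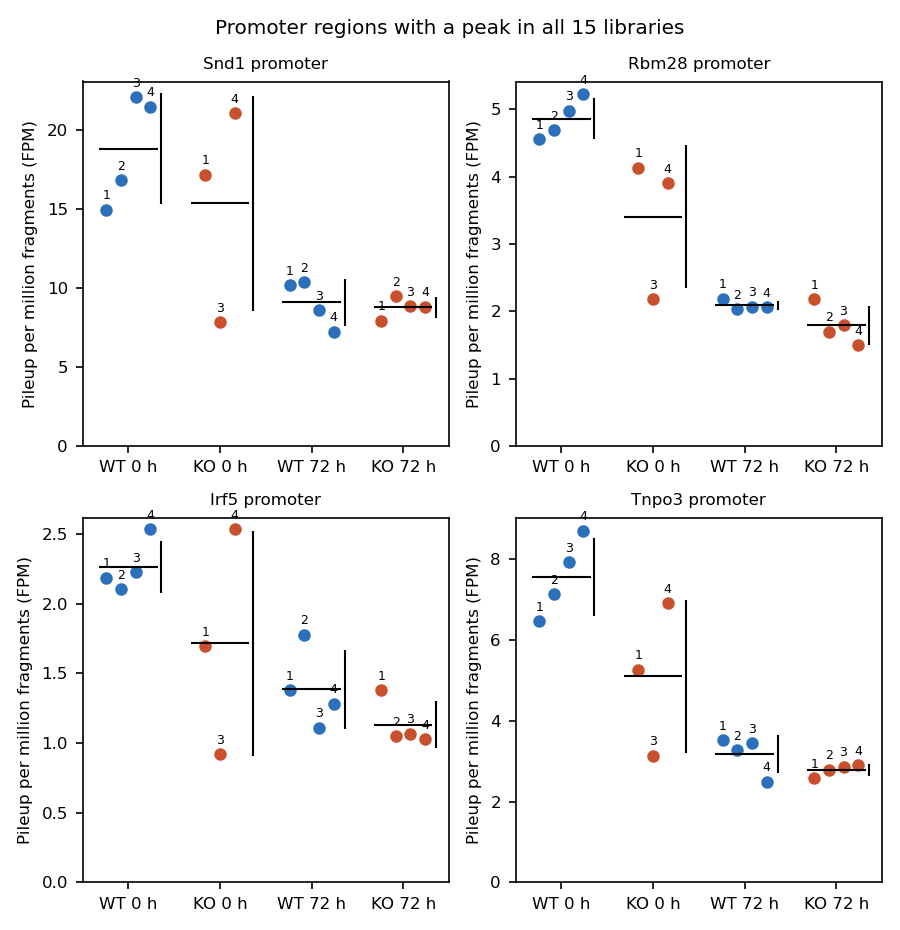
Highest pileup in FPM at the promoters of Snd1, Rbm28, Irf5 and Tnpo3 by group, with symbols as in the plot of the 3′ end of Snd1. Values at 72 h lie below most of those at 0 h, and knockout library 3 is the lowest of the 0 h libraries in each panel.

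Between 0 h and 72 h, Snd1 differed mainly by added regions. Of the 50 member regions, 17 gained a peak at 72 h (34.0%, exact stratified test, adjusted p 0.00399 to 0.0443), where 18.4% of all regions did, and 0 lost one, where 4.65% of all regions did. The gains were 14 of 35 at Snd1, 1 of 2 at Lep, 1 of 3 at Rbm28, 0 of 5 at Irf5 and 1 of 5 at Tnpo3. Peak presence also chose the regions, and most of the gained ones had no 0 h peak. These passed that choice through 72 h libraries alone, so for them the test describes the split and is no further evidence. Without knockout library 3 at 0 h, 13 of the 17 gains were called. A peak in every 72 h and no 0 h library was found in 6 Snd1 regions and 1 Tnpo3 region, 7 of 50 member regions, against 8.86% of all regions.

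The strongest of the gained regions were those at −10.4, +113.4 and +510.2 kb of Snd1, given above. The gained Tnpo3 region (chr6:29556998-29557744, +52.5 kb from its start site and inside the gene) had 1.18, 1.45, 1.72 and 0.972 FPM in wild type and 1.11, 0.848, 1.37 and 1.03 in knockout at 72 h. The genotypes overlapped there. The gained Rbm28 region (chr6:29143614-29144085) had no wild-type peak at 0 h, 0.600 and 0.779 in knockout libraries 1 and 4 at 0 h, and a peak in all 8 libraries at 72 h.

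The heights of the regions called in all libraries also changed with activation. The general shift, as the median of all regions, between 0 h and 72 h was −0.66, and 66.0% of the 21176 regions were called lower and 9.13% higher without centring. The Rbm28 promoter fell by 1.05 and the Tnpo3 promoter by 1.03 on the log2 scale (limma adjusted p = 2.38e-07 and 4.22e-07), and both remained lower after centring (−0.43 ± 0.10 and −0.41 ± 0.07, limma adjusted p = 0.000676 and 4.25e-05). The Snd1 promoter fell by 0.87 (limma adjusted p = 1.85e-05) and by 0.25 after centring (limma adjusted p = 0.0037). Without knockout library 3 at 0 h the differences were −1.20 at Rbm28, −1.19 at Tnpo3, −1.08 at Snd1 and −0.80 at Irf5 (highest limma adjusted p = 1.68e-07), against a median of −0.86. In wild type alone 4 of the 5 member regions were called lower at 72 h, and in knockout alone 0 were (lowest limma adjusted p = 0.0533), while the interaction was not called. Of all 21176 regions, 15844 were called lower in wild type alone and 4923 in knockout alone.

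The Irf5 promoter fell by 0.61 (limma adjusted p = 0.00284), close to the general shift, and after centring the difference was 0.01 ± 0.11 (limma adjusted p = 0.912). The Snd1 region at +108.4 kb had a difference of 0.15 ± 0.19 before (limma adjusted p = 0.491) and 0.77 ± 0.14 after centring (limma adjusted p = 6.18e-05). Its sign turned on fold enrichment, at −0.22 (limma adjusted p = 0.118) against a median of −0.24 over all regions, and in wild type alone, at −0.09 (limma adjusted p = 0.63), and without knockout library 3 at 0 h it was 0.05 (limma adjusted p = 0.704). After centring 34.3% of all regions were called higher and 38.1% lower at 72 h.

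Lep had no peak inside the gene or at its promoter in 2 or more libraries. Both of its regions lie outside it. That at chr6:29023232-29024579 is 35642 bases before the gene and 541 bases from the microRNA gene Mir129-1, and had 0.803, 1.0, 1.05 and 1.27 FPM in wild type and 0.988 and 0.974 in knockout libraries 1 and 4 at 0 h. At 72 h the region had 1.78, 2.79, 2.26 and 1.75 in wild type and 1.69, 2.06, 1.67 and 1.82 in knockout. The genotypes overlapped at both times. Every 72 h value lay above those of the 0 h libraries with a peak. Knockout library 3 had no peak there at 0 h, and the share of all regions split in this way was not counted. The region at chr6:29082874-29083408, 8998 bases past the gene, was seen at 72 h alone, in 4 wild-type and 2 knockout libraries at 0.428 to 0.766 FPM.

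Most of the remaining Snd1 regions were weak. Among those seen at both times were a region at +6.6 kb, with 0.812 to 1.17 FPM at 0 h and 1.56 to 2.37 at 72 h, and a region at +352.5 kb (chr6:28832009-28833701), next to Lrrc4, a gene nested in Snd1 (chr6:28828126-28831747), with 0.535 to 0.910 at 0 h and 1.12 to 2.18 at 72 h. Both had a peak in 14 of 15 libraries, with knockout library 3 at 0 h as the exception. In all, 22 of the 35 Snd1 regions were seen at 72 h alone and 1 at 0 h alone, against 35.5% and 8.04% of all regions. A further count gave 5 Snd1 regions in wild type alone and 1 in knockout alone, against 7.17% and 1.51% of all regions.

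At Tnpo3, the regions outside the gene were weak. Those at −11.4 kb and −40.2 kb from the start site had peaks in 5 and 9 libraries of both genotypes, at 0.404 to 0.769 and 0.421 to 0.897 FPM, and that at −8.0 kb in 2 wild-type libraries at 72 h.

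Over the 15 libraries, and after centring, the promoter heights of the members were not alike. Pearson's r was 0.71 between Rbm28 and Tnpo3, 0.65 between Snd1 and Tnpo3, 0.39 between Snd1 and Rbm28, and −0.08 to 0.21 between Irf5 and the others. The Snd1 promoter and its +108.4 kb region ran opposite, with r = −0.78. The regions most like each promoter were at Prkx, Ifrd1 and Creb3l2 for Snd1 (r 0.943 to 0.955), at Mmd, Lbhd1 and Slc4a2 for Rbm28 (0.918 to 0.936), at Ap5b1, Med12 and Ciart for Irf5 (0.842 to 0.856), and nearest to C9orf72, Ets1 and Ifne for Tnpo3 (0.961 to 0.967). These are the highest r over all other regions of the fit, in libraries that share time, genotype and depth, and are given as a description.

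For genes that work with the members, no region could be called for genotype in peak presence, as the smallest p cannot pass the adjustment. The counts below, like the 0.0% of all regions, thus tell nothing about these genes. The counts were 0 of 70 regions for the Toll-like receptor route to Irf5, 0 of 52 for leptin signalling, 0 of 61 for the importin beta family, 0 of 28 for nucleolar large subunit biogenesis and 0 of 40 for RNA-induced silencing. The Toll-like receptor route held 2 regions at an unadjusted p under 0.05, 9029 bases from Il12b (8 wild-type and 2 knockout libraries, exact p = 0.00612) and 79912 bases from Il12a (7 and 1, exact p = 0.0102), cytokine genes known as Irf5 targets in myeloid cells. The leptin list held 1, 42586 bases from Ptpn1, a phosphatase that acts on Jak2 (8 and 3, exact p = 0.0306), and the nucleolar list 1, at Bop1, a factor of large subunit assembly (7 and 2, exact p = 0.0469). In list order, 2 of 70, 1 of 52, 0 of 61, 1 of 28 and 0 of 40 regions had such a p, against 1.39% of all regions. These few regions are a description and no result about the lists. In height, the regions called lower in knockout were 1 each at Jak2, which signals from the leptin receptor (−0.92, limma adjusted p = 0.0166), near Tnpo1, an importin (−0.68, 0.0396), and at Ago2, the slicer of RNA silencing (−0.64, 0.0435), of 19, 16 and 15 regions in the fit, where 3.85% of all regions were called lower. The Toll-like receptor and nucleolar lists had 0 of 23 and 0 of 11. Median differences of the 5 lists lay between −0.37 and −0.46, against −0.37 over all regions, and with each library centred none of these calls remained.

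On chromosome 6 outside the interval, the called regions nearest to Irf5 were at Gcc1 (1.10 Mb away), Zfp800 (1.13 Mb), a pair near Klf14 (1.57 and 1.63 Mb) and Creb3l2 (7.86 Mb), lower in knockout by 0.61 to 0.72 on the log2 scale. Within 1 Mb outside the interval 2 of 26 regions in the fit were called lower (7.69%), and after centring 0 were.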

How the data were processed

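ATAC-seq peak lists of 15 libraries were used: IRF5+/+ at 0 h (4) and 72 h (4), IRF5-/- at 0 h (3) and 72 h (4), with 4 lists of merged replicates and 4 final lists. The submitters' processing notes name Trim Galore 0.5.0, Bowtie2 2.2.9, HOMER 4.10.4 and the build mm10. Per the file headers, peaks were called with MACS2 2.1.1.20160309 on read pairs without a control, with 1 fragment kept per position and a q cutoff of 0.05. The deposited pileup is the fragment coverage signal at a peak's summit. The deposited fold enrichment is the ratio of that pileup to the local background, and the −log10 q values are MACS2's, per the file headers. The deposited final lists also hold a score that follows −log10 q; the rule behind these lists was not given in the sources used here. Scores, folds and q of the merged and final lists are the authors' and were used to describe peaks within a list.

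Peaks were merged (overlap 1 bp or more) into 111393 regions, of which 83743 were seen in 2 or more libraries. Pileups were scaled to FPM, fragments per 1000000 kept after filtering (20531236 to 29000534 a library, from the headers). Peak presence was tested by a two-sided exact stratified test with Benjamini-Hochberg adjustment over all regions, and log2 pileup by limma 3.58.1 (R 4.3.3) over the 21176 regions with a peak in all libraries, at an adjusted p under 0.05. Both were tested on simulated data. Fragment number limits the calling of weak peaks, and no pseudocount was used. Promoters were taken from a RefSeq table of GRCm38.p6 and motifs searched on both strands.

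All member genes are named, and their regions given one by one or by counts, along with other genes of the interval with a genotype call, up to 5 called regions of chromosome 6 nearest to Irf5, the 3 regions most alike to each promoter, and up to 3 called genes a list; the Il12a, Il12b, Ptpn1, Bop1, Agap3, Flnc and Pgk1 regions were named after their values were seen. The members and the gene lists were chosen with earlier results of these data known. Alternatives covered peak threshold, region filter, overlap, test, scaling, measure, moderation, replicate number as block and leaving out each library. The fit at 72 h alone, the fit with lowest values in place of missing peaks and the overlap of at least 0.5 of a region were added after the data were seen. Libraries of the same number did not deviate together, so the numbers were not taken as pairs.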

Additional observations from a re-analysis of the deposited data

Results flagged for a closer look

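In 64 groups of 4 libraries checked, 5 values, from 3 libraries, stood far from the other 3 of their group in pileup, where chance gives about 1 in 20 groups. Wild-type library 4 at 72 h was low at the Snd1 regions +397.7 kb (0.739) and +510.2 kb (1.94) and high at +469.1 kb (0.933). Its median pileup over the regions called in all libraries was also the lowest of the wild-type libraries at 72 h (2.294 FPM). Knockout library 2 at 72 h was high at the Snd1 region +397.7 kb (1.45), and knockout library 1 at 72 h was high at the Irf5 promoter (1.38).

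A further set of Snd1 and Irf5 peaks seen in 1 library each, and in the merged list of that library's group, lies outside the regions compared above. At 72 h, wild-type library 2 held peaks at chr6:28470765-28470980 (0.798 FPM), chr6:28474241-28474449 (0.871) and chr6:28928086-28928272 (1.488). Wild-type library 3 at 72 h held chr6:28574161-28574346 (0.574) and chr6:28821718-28821932 (0.613), and wild-type library 4 at 72 h held chr6:28789837-28790289 (0.467). Wild-type library 2 at 0 h held chr6:28791301-28791603 (0.414). Knockout libraries held such peaks as well: library 4 at 72 h at Snd1 chr6:28734254-28734560 (0.561), which the merged wild-type list at 72 h also held, and library 2 at 72 h at Irf5 chr6:29533579-29533806 (0.686).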

How the results depend on the processing

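For genotype in peak presence the smallest p of the design (0.000408), reached by 2 regions, cannot pass the adjustment, so the count of 0 under the alternatives tells nothing about stability. Regions gaining a peak at 72 h numbered 15380, and 8843 when at least 0.5 of a region had to be covered; leaving out a library gave 12271 to 14727, and for losses (3895) 2633 to 3613. With the replicate number as a block, 0 regions gained and 0 lost a peak, and 0 were lower in knockout by pileup. In peak presence this block sets 1 library at 72 h against 1 at 0 h within each number and genotype. The smallest p of such a test cannot pass the adjustment here, so its 0 gains and 0 losses tell nothing about stability. Libraries of the same number did not deviate together (r −0.167 to 0.228 over 21 pairs).

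Regions higher in knockout by pileup numbered 1, with 3 when a peak in at least 12 libraries sufficed, 0 at 0 h alone, 7 at 72 h alone, 10 with lowest values for missing peaks and 1 to 4 when a library was left out. Those lower numbered 816, with 0 after centring, 0 on fold enrichment, 2013 with at least 12 libraries, 29 with robust moderation, 0 at 0 h alone, 429 with lowest values for missing peaks and 0 to 16930 when a library was left out (501 without knockout library 3 at 0 h). For 72 h against 0 h, 1934 were higher and 13985 lower, with 7259 and 8068 after centring, 1054 and 4923 in knockout alone, 24395 and 23951 with lowest values for missing peaks, and 4565 higher with at least 12 libraries; leaving out a library gave 1727 to 2364 and 12517 to 16848. The interaction went from 0 and 0 to 45 higher and 50 lower with lowest values for missing peaks. At 72 h, 12 were higher and 1716 lower, with 2 and 2 after centring, 0 and 4 on fold enrichment, 40 and 3205 with robust moderation, and 1 to 34 and 7 to 5236 when a library was left out. The causes were not tested.

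The sign changed for the genotype difference of the Snd1 promoter (0.174 after centring, 0.203 on fold enrichment) and the Tnpo3 promoter (0.007 on fold enrichment). It also changed for activation at the Snd1 region +108.4 kb (−0.223 on fold enrichment, −0.093 in wild type alone) and the Irf5 promoter (0.014 after centring, 0.045 on fold enrichment). The genotype call at +108.4 kb was also lost with the block (limma adjusted p = 0.0908). Of the 17 gained member regions, 9 were called at −log10 q of at least 5, 7 with 0.5 of the region covered, and 12 to 15 when a library was left out. Weak peaks near the calling threshold limit the presence calls.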

Other observations

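The promoter of Pgk1, a glycolytic kinase gene (chrX:106186529-106188085), was the 1 region called higher in knockout among the 21176 compared. Its pileup was 8.17, 7.03, 10.76 and 10.01 FPM in wild type and 24.2, 9.98 and 26.0 in knockout libraries 1, 3 and 4 at 0 h. At 72 h the values were 6.45, 5.84, 5.70 and 4.39 in wild type and 11.9, 12.3, 13.4 and 12.8 in knockout, so that the groups did not overlap at 72 h. The difference was 1.12 ± 0.19 (SE, limma adjusted p = 0.000155), 1.51 ± 0.08 after centring (limma adjusted p = 6.55e-09) and 1.34 without knockout library 3 at 0 h (limma adjusted p = 1.71e-10). The region was chosen after its values were seen. As background, a Pgk1 promoter is a common part of gene-targeting cassettes; the make-up of the IRF5-/- allele was not given in the sources used here, and whether it holds one was not tested.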
